A study of Gallus gallus with 20 samples.

Results

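Heterophils are the granulocytes of birds, the counterpart of mammalian neutrophils. The 8 genes described here were listed as encoding proteins that these cells store in granules or release, which was not tested here. They are the beta-defensins AvBD7 and DEFB4A, the cathelicidins CATH2 and CATH3, the granule protein LECT2, the lysozyme LYG2, the calcium-binding protein S100A12 and the matrix protease MMP9. They were chosen by symbol from the deposited table of raw counts, and all 8 were found among its 13956 named genes. All 8 also had enough counts to be tested, as did 10697 named genes in all. CATH3 would not have passed the count filter without the Ogye libraries of 10 weeks, where it was high, and also needed replicate 4 of Ogye at 5 weeks. The list was drawn up with the 10-week levels of these libraries already known, because several of the genes had stood out there. Every comparison that uses a 10-week library is therefore given for these 8 genes as a description with no test. The comparison of the breeds at 5 weeks sets no 10-week library against another and was tested, though the 10-week libraries enter the estimate of the spread.

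Defensins and cathelicidins are small cationic peptides that damage bacterial membranes, lysozymes cut the bacterial cell wall, and MMP9 degrades denatured collagen and basement membrane. Chicken heterophils lack myeloperoxidase and depend strongly on such peptides to kill bacteria. In liver they reach the tissue from the blood, and they gather around portal tracts and sites of infection.

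The libraries were made from total liver RNA of the chicken breeds Cornish, a meat breed, and Korean Ogye, a native black-skinned breed. There were 4 groups of 5 libraries, namely Cornish at 10 weeks, Ogye at 10 weeks, Cornish at 5 weeks and Ogye at 5 weeks, and no agent or allele is named for any of them. The series asks how the liver transcriptome relates to the weight divergence of the breeds. Sex is not given, and nothing in the labels tells whether libraries are separate birds, so p-values measure only the spread between these libraries.

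Libraries held between 14865637 and 31848768 counts. Levels are given as CPM, counts per 1e+06 scaled counts of named genes, and a single count was worth between 0.0426 and 0.112 CPM. A listed set of 14 hepatocyte markers summed to between 144737 and 385799 CPM in every library, so liver parenchyma was present throughout. Replicates 3, 4 and 5 of Ogye at 5 weeks stood apart from the other 17 libraries on the first principal component. In these 3 libraries, genes spanning under 5 kb had median deviations of 0.80, 0.97 and 0.91 from the gene's median log2 level, against -0.32 to 0.08 in the others. The 8 genes span 1.26 to 4.87 kb and so all belong to the short class, and values without those 3 libraries stand beside the comparisons that use them. In bulk tissue, more cells of a type and more RNA per cell cannot be told apart. Which liver cells the reads of each of the 8 genes came from was not tested.

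AvBD7 and DEFB4A lie in the defensin cluster of chromosome 3, AvBD7 at 107243959 to 107245564 and DEFB4A, which RefSeq also calls AvBD2, at 107254231 to 107256734 (GRCg7b, span of the whole gene). At 10 weeks AvBD7 had 3.07, 1.15, 0.564, 0.789 and 1.55 CPM in the 5 Cornish libraries, against 79.6, 12.1, 21.9, 14.9 and 5.63 CPM in the Ogye libraries, in the order of replicates 1 to 5. At 5 weeks it had 1.46, 1.49, 0.683, 0.397 and 2.06 CPM in Cornish, against 3.25, 1.17, 2.67, 3.17 and 0.595 CPM in Ogye. The 5 Ogye libraries of 10 weeks lay above the other 15, and replicate 1 lay far above its own group. AvBD7 averaged 1.43 ± 0.994 CPM in Cornish and 26.8 ± 30.1 CPM in Ogye at 10 weeks (SD, n = 5 each), a log2 fold change of -4.25 ± 0.70 (SE). Without replicate 1 of Ogye it was -3.27.

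DEFB4A gave 3.38, 1.23, 0.939, 0.861 and 2.28 CPM in Cornish at 10 weeks, against 58.7, 4.81, 11.8, 10.1 and 3.90 CPM in Ogye. In the younger birds the values were 1.17, 1.92, 1.66, 0.132 and 1.5 CPM in Cornish, against 1.87, 1.17, 1.52, 4.03 and 0.818 CPM in Ogye. The breeds did not overlap at 10 weeks and overlapped at 5 weeks, and in Ogye the lowest library of 10 weeks lay just under the highest of 5 weeks. The log2 fold change between the breeds at 10 weeks was -3.38 ± 0.73, and -2.15 without replicate 1 of Ogye.

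CATH2, at 4011425 to 4013199 of chromosome 2, and CATH3, at 4009501 to 4010761, encode cathelicidins whose precursors share a conserved amino-terminal domain. They stand with CATHB1 and CATH1 within 7.64 kb. Reads shared by these related genes may be split in a way that the sources used here do not describe. CATH2 had 1.15, 0.433, 0.250, 0.574 and 0.828 CPM in Cornish at 10 weeks, against 19.1, 1.90, 5.84, 4.03 and 1.18 CPM in Ogye. At 5 weeks it had 0.291, 1.02, 0.488, 0.176 and 0.796 CPM in Cornish, against 0.738, 0.391, 1.27, 2.58 and 0.372 CPM in Ogye. The breeds were just separated at 10 weeks, by replicate 1 of Cornish and replicate 5 of Ogye, and overlapped at 5 weeks. The 10-week difference was -3.32 ± 0.73 on the log2 scale, and -2.34 without replicate 1 of Ogye.

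CATH3 was the scarcest in reads, with 3 to 6 counts per Cornish library of 10 weeks and 1 to 12 counts per library at 5 weeks. In CPM it stood at 0.384, 0.216, 0.250, 0.215 and 0.621 in Cornish at 10 weeks, against 5.75, 0.783, 1.92, 1.51 and 0.726 in Ogye. At 5 weeks it stood at 0.437, 0.299, 0.391, 0.0441 and 0.328 CPM in Cornish, against 0.492, 0.174, 0.571, 0.793 and 0.372 CPM in Ogye. All Ogye libraries of 10 weeks were above all Cornish ones, though by little for replicates 2 and 5. The log2 fold change was -2.70 ± 0.60, and -1.91 without replicate 1 of Ogye.

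LECT2, at 14814217 to 14819090 of chromosome 13, is the chicken gene first described as MIM1, a target of the Myb oncoprotein in promyelocytes, and its product is a granule protein and a leukocyte chemoattractant. In Cornish at 10 weeks it had 11.4, 3.97, 2.63, 1.72 and 5.18 CPM, against 205, 19.7, 45.5, 34.4 and 11.1 CPM in Ogye. In Cornish at 5 weeks it had 4.66, 6.14, 3.61, 0.882 and 5.01 CPM, against 8.71, 5.60, 5.78, 10.8 and 1.34 CPM in Ogye. The breeds met at 10 weeks, where replicate 1 of Cornish reached the level of replicate 5 of Ogye, and within Ogye every 10-week library was above every 5-week library. The log2 fold change between the breeds at 10 weeks was -3.67 ± 0.75, and -2.48 without replicate 1 of Ogye. In mammals LECT2 is made by hepatocytes. Here its counts ran from 18 to 2466 per library.

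S100A12, at 1707065 to 1708503 of chromosome 25, encodes a cytosolic protein of granulocytes that binds calcium and is released in inflammation, and RefSeq lists S100A9 as a synonym. It had 9.06, 1.80, 12.2, 5.88 and 3.73 CPM in Cornish at 10 weeks, against 63.3, 44.9, 29.1, 14.9 and 6.99 CPM in Ogye. At 5 weeks it had 1.75, 1.75, 1.27, 0.970 and 2.01 CPM in Cornish, against 3.10, 1.74, 7.75, 4.69 and 5.43 CPM in Ogye. The breeds overlapped at both ages, at 5 weeks only through replicate 2 of Ogye. Within Cornish, 4 of the 5 libraries of 10 weeks lay above all of 5 weeks, a log2 fold change of 2.08 ± 0.56, while the defensins and cathelicidins of the list were between 0.13 and 0.43 in the same comparison. The breed difference at 10 weeks was -2.27 ± 0.53.

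MMP9, at 10914732 to 10918856 of chromosome 20, had 1.08, 0.216, 1.88, 1.58 and 1.66 CPM in Cornish at 10 weeks, against 3.75, 2.46, 2.36, 2.52 and 1.27 CPM in Ogye. At 5 weeks it had 0.583, 0.896, 0.732, 0.264 and 1.03 CPM in Cornish, against 0.984, 0.521, 0.825, 0.925 and 0.446 CPM in Ogye. Its breed difference at 10 weeks was the smallest of the 8 at -0.95 ± 0.43, with overlap through replicate 5 of Ogye. All Ogye libraries of 10 weeks were above those of 5 weeks, by 1.73 ± 0.44 on the log2 scale.

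LYG2, at 132632026 to 132635432 of chromosome 1, encodes a goose-type lysozyme, and RefSeq lists LYG1 as a synonym. It had 113, 22.4, 79.5, 65.9 and 40.7 CPM in Cornish at 10 weeks, against 474, 893, 1068, 698 and 448 CPM in Ogye. At 5 weeks it had 232, 461, 151, 260 and 394 CPM in Cornish, against 146, 65.1, 200, 65.9 and 187 CPM in Ogye. The order of the breeds thus differed between the ages. Every Cornish library of 10 weeks was below every Cornish library of 5 weeks, a log2 fold change of -2.22 ± 0.43, and every Ogye library of 10 weeks was above every Ogye library of 5 weeks, a log2 fold change of 2.43 ± 0.44. At 10 weeks LYG2 averaged 64.3 ± 35.1 CPM in Cornish and 716 ± 267 CPM in Ogye (SD, n = 5 each), a log2 fold change of -3.48 ± 0.46, and of -3.59 without replicate 1 of Ogye.

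**Figure D1:**
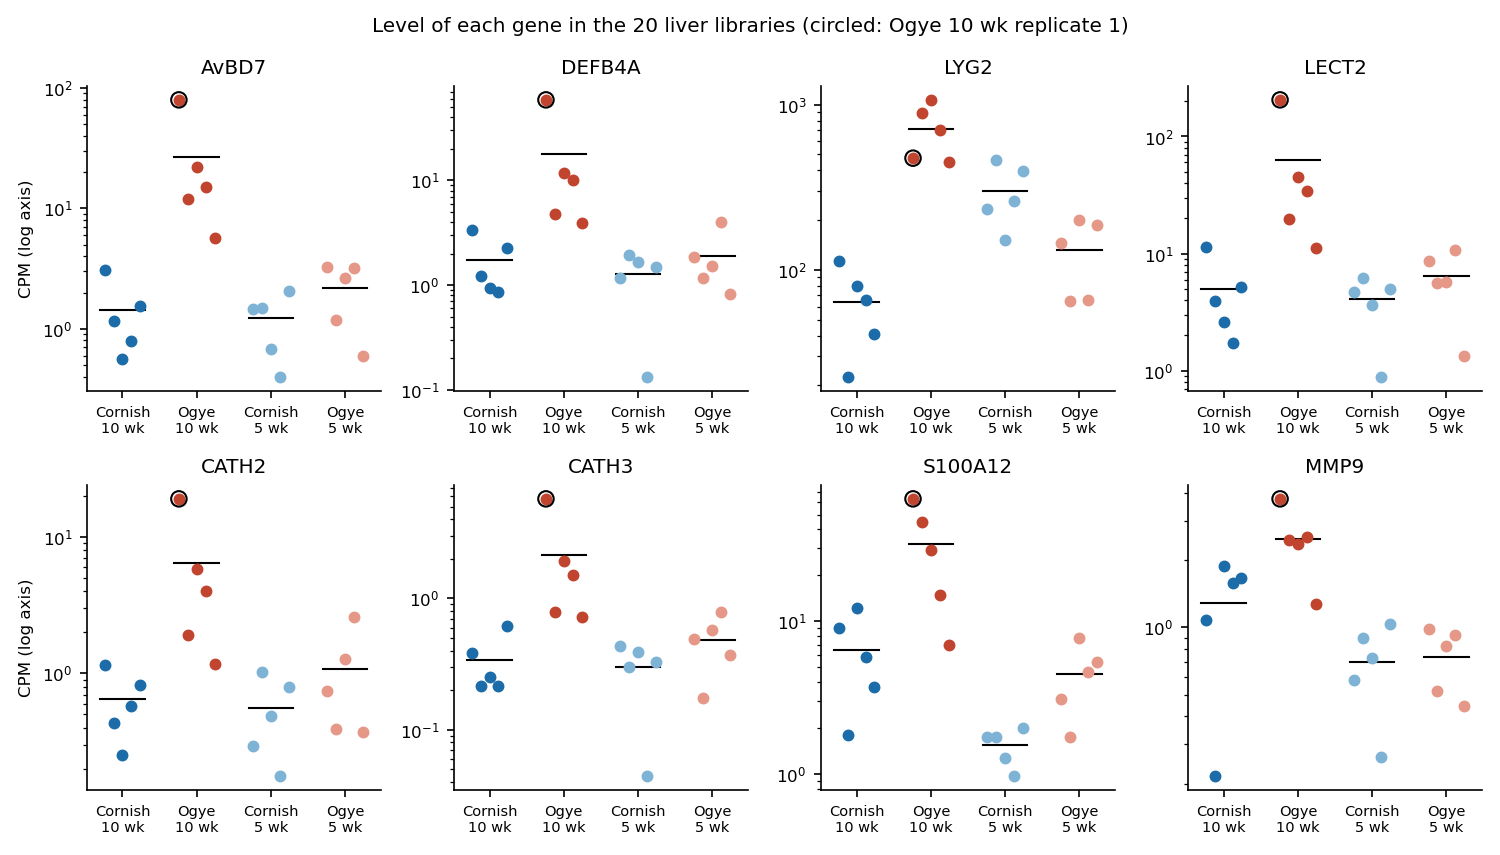
Level of each of the 8 genes in CPM (log axis, own scale for each gene) in the 5 libraries of each group, with points as libraries in replicate order and bars as group means. The circled library, replicate 1 of Ogye at 10 weeks, is the highest of all 20 for 7 of the genes but not for LYG2, where it had 474 CPM against 1068 CPM in replicate 3.

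Set side by side, the breeds did not overlap at 10 weeks for 5 of the 8 genes, AvBD7, DEFB4A, CATH2, CATH3 and LYG2, all lower in Cornish. Among all tested genes 5.5% were lower in Cornish with no overlap, and since the 10-week levels led to the list nothing is read from the difference. Between the ages in Ogye, 4 of the 8 genes, AvBD7, LECT2, LYG2 and MMP9, were higher in every 10-week library, against 9.81% of all tested genes. In Cornish 1 of the 8, LYG2, separated the ages, lower at 10 weeks as were 7.6% of all tested genes. The log2 fold changes from 5 to 10 weeks in Ogye were 3.62 ± 0.66 for AvBD7, 3.25 ± 0.72 for DEFB4A, 3.29 ± 0.73 for LECT2, 2.60 ± 0.69 for CATH2, 2.17 ± 0.56 for CATH3 and 2.82 ± 0.54 for S100A12. In Cornish they were 0.21 ± 0.69 for AvBD7, 0.43 ± 0.73 for DEFB4A, 0.29 ± 0.71 for LECT2, 0.19 ± 0.75 for CATH2, 0.13 ± 0.65 for CATH3 and 0.86 ± 0.44 for MMP9. These comparisons share libraries, the breeds at 10 weeks and the ages in Ogye having the same 5 Ogye libraries in common. Leaving out 1 library, the value in Cornish ran from -0.30 to 0.50 for AvBD7, -0.29 to 0.51 for LECT2, -0.14 to 0.53 for CATH2 and -0.16 to 0.30 for CATH3, so its sign was not settled for these. In Ogye without replicate 1 of 10 weeks the differences were 2.65 for AvBD7, 2.03 for DEFB4A, 2.10 for LECT2, 1.61 for CATH2, 1.38 for CATH3 and 2.41 for S100A12. Without the 3 Ogye libraries of 5 weeks that stood apart, the difference in Ogye was 3.62 for AvBD7, 3.56 for DEFB4A, 3.15 for LECT2, 3.51 for CATH2, 2.69 for CATH3, 3.73 for S100A12, 1.72 for MMP9 and 2.77 for LYG2.

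At 5 weeks, where a test was made, none of the 8 genes passed it. With edgeR's quasi-likelihood test and Benjamini-Hochberg adjustment over all tested genes, 0 of 8 were called, while 19.1% of all tested genes were. At an unadjusted p under 0.05 there were 2, LYG2 and S100A12, and DESeq2 called those 2. LYG2 was 1.18 ± 0.42 higher in Cornish on the log2 scale, with an adjusted p of 0.055, and S100A12 had a log2 fold change of -1.53 ± 0.55, with an adjusted p of 0.057. The other 6 genes had log2 fold changes between -0.91 for CATH2 and -0.08 for MMP9, with adjusted p between 0.345 and 0.90. The median over the 8 genes was -0.66, against 0.00 over all tested genes. The breeds overlapped for each of the 8, while 3.7% of all tested genes were lower and 3.15% higher in Cornish with no overlap. Without the 3 Ogye libraries that stood apart LYG2 was at 1.51 with an adjusted p of 0.272 and S100A12 at -0.63 with an adjusted p of 0.767. There AvBD7 was at -0.85, LECT2 at -0.82, DEFB4A at -0.25, CATH3 at -0.14, MMP9 at -0.10 and CATH2 at -0.01, with a median of -0.20 over the 8. With the 5-week libraries fitted alone LYG2 had an adjusted p of 0.112 and S100A12 of 0.0831.

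**Figure D2:**
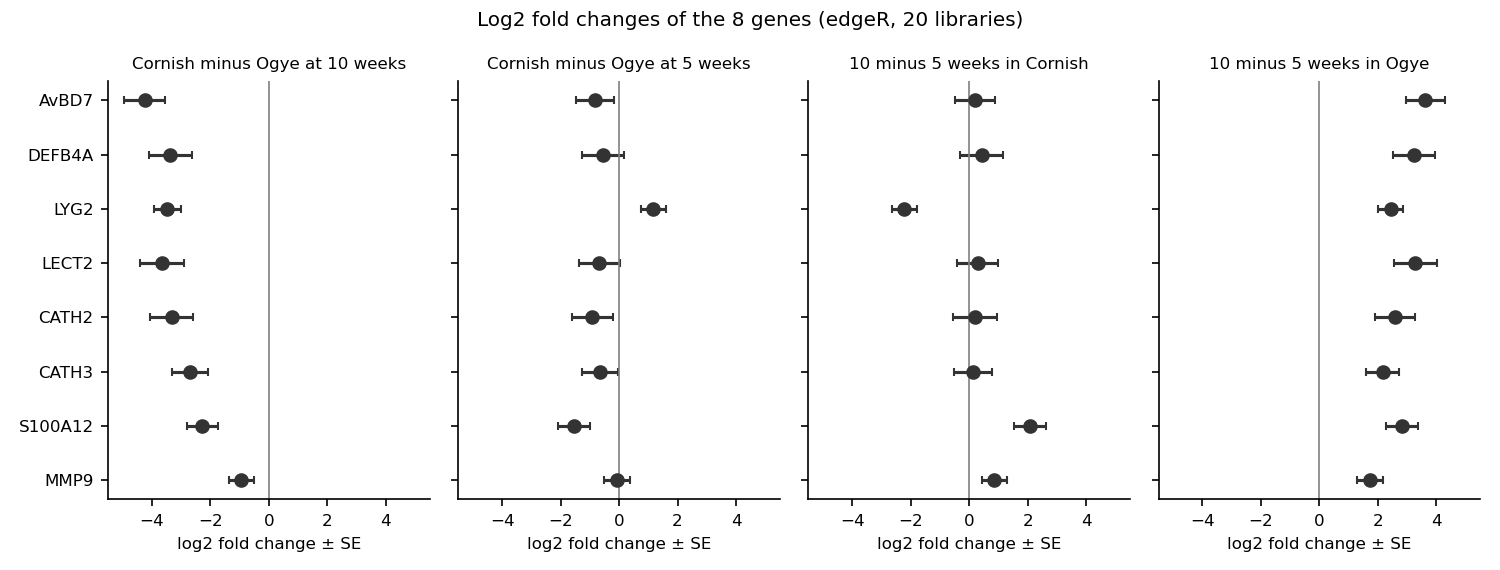
Log2 fold change with its standard error for each gene in the 4 comparisons, from edgeR fitted to all 20 libraries. At 10 weeks all 8 points lie left of 0 (lower in Cornish), in Ogye all 8 lie right of 0 (higher at 10 weeks), and LYG2 is the one gene right of 0 between the breeds at 5 weeks and left of 0 between the ages in Cornish.

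AvBD7, DEFB4A, LECT2, CATH2 and CATH3, which lie on 3 chromosomes, varied together from library to library. Over the 20 libraries, which share their scaling to depth, Pearson's r of log2 CPM was between 0.926 and 0.977 for their 10 pairs. It was between 0.812 and 0.946 for deviations from the group means. Replicate 1 of Ogye at 10 weeks, known to be high for several of these genes when they were listed, enters both ranges. How far that library carries the likeness was not tested, so these values are a description. LECT2 spanned a 233-fold range over the libraries and AvBD7 a 201-fold range, while the ratio of LECT2 counts to AvBD7 counts stayed between 1.63 and 5.29. Pairs with S100A12 or MMP9 were at 0.744 to 0.851, and LYG2 with the other 7 at 0.477 to 0.616. For deviations from the group means LYG2 was at -0.08 to 0.59. The lowest of these were with the 5 genes that varied together, at -0.08 to 0.10, and the highest were with S100A12 at 0.59 and MMP9 at 0.38. Whether the reads of LYG2 came from heterophils or from other liver cells was not tested.

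The library that carried the highest levels was replicate 1 of Ogye at 10 weeks. At 10 weeks the 5 genes that varied together summed to 4.16 to 19.4 CPM in Cornish, against 369 CPM in this library and 39.2, 87.0, 65.0 and 22.5 CPM in replicates 2 to 5 of its group. At 5 weeks they summed to 1.63 to 10.9 CPM in Cornish and 3.50 to 21.4 CPM in Ogye. In this sum replicates 2 to 5 of Ogye at 10 weeks also lay above all libraries of the other groups, replicate 5 only narrowly. Taken singly, AvBD7 alone of the 5 genes did so, while DEFB4A, LECT2, CATH2 and CATH3 overlapped with other groups. The genes were listed with the 10-week levels known, so nothing is read from this sum. Against the median of replicates 2 to 5, replicate 1 was 5.90-fold for AvBD7, 7.88-fold for DEFB4A, 7.60-fold for LECT2, 6.43-fold for CATH2 and 5.01-fold for CATH3. It was 2.87-fold for S100A12, 1.55-fold for MMP9 and 0.596-fold for LYG2. Over all tested genes the median ratio was 1.0, and 22 genes, or 0.206%, reached a ratio of 5. Replicate 1 was the highest of the 20 libraries for 7 of the 8 genes and for 4.01% of all tested genes. This library was known to be high for several of the 8 when they were listed, so nothing is read from these shares. In the same group replicate 5 was the lowest library for 8 of 8.

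Leaving out both replicates 1 and 3 of Ogye at 10 weeks, a choice made after the data were seen, the breed differences at 10 weeks were -2.93 for AvBD7, -1.86 for DEFB4A, -2.12 for LECT2, -1.88 for CATH2 and -1.60 for CATH3. LYG2 stood at -3.40, S100A12 at -1.76 and MMP9 at -0.70. Replicates 1 and 3 were the highest of their group for the 5 genes that varied together, so smaller differences were fixed in advance. The differences of these 5 shrank by over 1 log2 unit. LYG2, at 474 and 1068 CPM in the libraries left out, moved by less than 0.1. Nothing is read from this contrast.

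The ranking below took tested genes outside the 8 and left out symbols that are locus identifiers (LOC) or start with gga-. The genes most like the 8 were sought as the highest Pearson's r, over the 20 libraries, with their mean standardised log2 CPM. They were TGM3, a transglutaminase, at 0.957, the defensin AvBD1 at 0.927, the cathelicidin CATH1 at 0.899, SERPINB10B at 0.891, SERGEF at 0.877 and EPX, a peroxidase of granulocytes, at 0.875. SERPINB10B is the gene that RefSeq also calls MENT, a chromatin-condensing protein of avian granulocytes. For AvBD7 alone the first 3 were TGM3 at 0.964, AvBD1 at 0.918 and CATH1 at 0.913, and for LECT2 alone AvBD1 at 0.944, TGM3 at 0.943 and CATH1 at 0.933. TGM3 had 0.922, 0.144, 0.125, 0.143 and 0.207 CPM in Cornish at 10 weeks, against 15.3, 2.91, 4.21, 2.72 and 1.09 CPM in Ogye. EPX had 1.23, 1.37, 0.125, 0.502 and 0.311 CPM in Cornish, against 20.1, 3.58, 3.25, 2.02 and 1.82 CPM in Ogye. Both were highest in replicate 1 of Ogye, and for both the breeds did not overlap at 10 weeks, while AvBD1, CATH1, SERPINB10B and SERGEF overlapped. Since the 6 genes were picked for their likeness, these levels are a description.

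**Figure D3:**
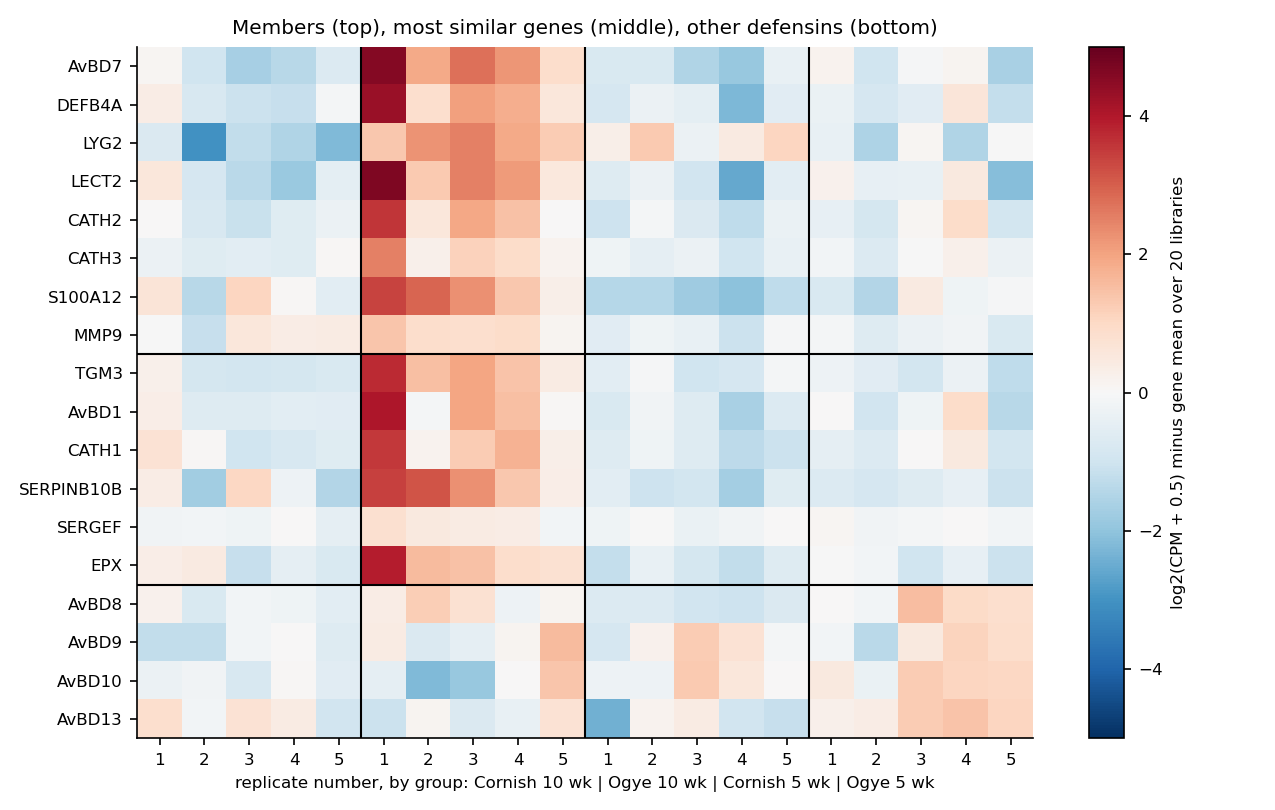
Log2 of CPM plus 0.5, minus the gene's mean over the 20 libraries, for the 8 genes (top), the 6 genes most like them (middle) and 4 other defensin genes (bottom), with libraries in columns by group. Replicate 1 of Ogye at 10 weeks is the darkest red column for AvBD7, DEFB4A, LECT2, CATH2 and CATH3, while LYG2 and the 4 other defensin genes peak in other libraries.

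The defensin cluster of chromosome 3 holds 12 defensin genes of the table within 87.1 kb, of which 7 had enough counts to be tested. From AvBD7 onwards towards higher coordinates, replicate 1 of Ogye at 10 weeks exceeded the median of the other 4 Ogye libraries 5.90-fold for AvBD7, 7.44-fold for AvBD6, 7.88-fold for DEFB4A and 9.23-fold for AvBD1. AvBD6 was under the count filter, with 126, 9, 28, 18 and 2 counts in the 5 Ogye libraries of 10 weeks. Further on, where counts were too few for a ratio, AvBD3 had 14 counts in replicate 1, against 0, 5, 2 and 0 in the others, and AvBD4 had 43 counts, against 0, 13, 1 and 0, while AvBD14 had 2, against 0 in each of the others. On the other side of AvBD7 the ratio was 0.920 for AvBD8, 1.46 for AvBD9, 1.15 for AvBD10 and 0.482 for AvBD13. The breed difference at 10 weeks was -0.78 ± 0.30 for AvBD8, -0.99 ± 0.48 for AvBD9, -0.27 ± 0.51 for AvBD10 and 0.45 ± 0.47 for AvBD13, none of them called. AvBD1, a peptide of heterophil granules, was called lower in Cornish at 10 weeks, by -3.00 ± 0.73 with an adjusted p of 0.016, and without replicate 1 of Ogye it was at -1.73 with an adjusted p of 0.0863. AvBD1 was also picked above for its likeness over these same libraries, so this call is no independent test. AvBD8, AvBD9, AvBD10 and AvBD13 are known mainly from epithelia and from liver and kidney.

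**Figure D4:**
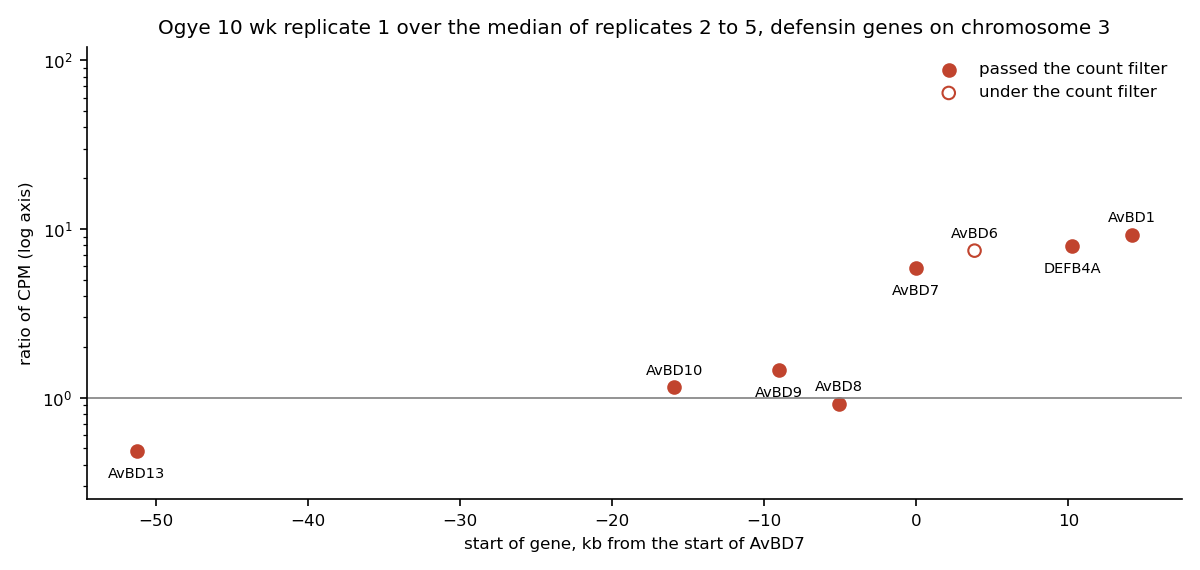
CPM in replicate 1 of Ogye at 10 weeks over the median of replicates 2 to 5 (log axis), against the distance of the gene's start from that of AvBD7 in kb, for the defensin genes of chromosome 3 whose median in replicates 2 to 5 was over 3 counts; the open circle, AvBD6, had too few counts to be tested. The 4 genes from AvBD7 rightwards have ratios of 5.90 to 9.23, and the 4 on the left have ratios between 0.482 and 1.46.

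Of 14 other host defence peptide genes found by symbol, 8 were tested. They too were listed with earlier results of these data known. At 10 weeks 0 were called higher and 2 lower in Cornish, AvBD1 and CATH1, and 5 had an unadjusted p under 0.05, against 7.65% of all tested genes called. Both called genes were also picked above for their likeness over these same libraries, so their calls are no independent test. CATH1, like CATH3, would not have passed the count filter without the Ogye libraries of 10 weeks, where it was high. CATH1 was at -2.87 ± 0.83 with an adjusted p of 0.0396. Without replicate 1 of Ogye it was at -1.75 with an adjusted p of 0.196, and leaving out any of 5 other 10-week libraries (replicates 2 to 5 of Cornish, replicate 3 of Ogye) also ended the call. The median log2 fold change of the 8 was -0.88, against -0.03 over all tested genes. At 5 weeks 2 were called lower in Cornish, AvBD8 by -1.59 ± 0.30 and AvBD13 by -1.47 ± 0.47, with adjusted p of 0.00632 and 0.0374. Without the 3 Ogye libraries that stood apart neither was called, AvBD8 being at -0.75 with an adjusted p of 0.274 and AvBD13 at -0.82 with an adjusted p of 0.602. The call of AvBD13 was also lost without any of 6 single libraries (replicates 1, 4 and 5 of Cornish, 3, 4 and 5 of Ogye), at adjusted p up to 0.0997.

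In Ogye 3 of these peptide genes were called higher at 10 than at 5 weeks, AvBD1 by 2.70 ± 0.71, CATH1 by 2.96 ± 0.82 and the lysozyme gene LYZ by 1.25 ± 0.50, against 46.1% of all tested genes called. For AvBD1 and CATH1, picked for likeness over these same libraries, the calls are again no independent test. CATH1 was also tested only because its Ogye libraries of 10 weeks passed the count filter. Without the 3 Ogye libraries that stood apart AvBD1 was at 3.07 and CATH1 at 3.73, each with an adjusted p just over the threshold, 0.0566 and 0.0563. Without replicate 1 of Ogye at 10 weeks AvBD1 was at 1.42 with an adjusted p of 0.0495 and CATH1 at 1.84 with an adjusted p of 0.0547. Without both replicates 1 and 3 they were at 0.93 and 1.71, with adjusted p of 0.225 and 0.116. LYZ was at 2.49 with an adjusted p of 0.025 without the 3 Ogye libraries of 5 weeks, and its call was lost without any of 14 single libraries, at adjusted p up to 0.191. In Cornish none of the 8 was called between the ages by edgeR or DESeq2, none had an unadjusted p under 0.05, and 7.36% of all tested genes were called. CATHB1, a cathelicidin of the bursa, had no count in any library.

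Another list held genes of heterophil granules, of the oxidase that makes superoxide and of surface receptors. This list was also drawn up with earlier results of these data known, so its calls are no independent test. Of 16 tested, 2 were called higher and 2 lower in Cornish at 10 weeks, where 7.65% of all tested genes were called. The lower ones were EXFABP, a lipocalin that binds bacterial siderophores, at -2.81 ± 0.64 with an adjusted p of 0.0125, and ALOX5AP, needed for leukotriene synthesis, at -1.21 ± 0.33 with an adjusted p of 0.031. The higher ones were ADAM8, a leukocyte metalloproteinase, at 1.76 ± 0.44 and PGLYRP2, an amidase that in mammals is secreted by the liver, at 0.88 ± 0.24. The call of ADAM8 was lost without replicate 2 or 3 of Ogye, at adjusted p of 0.0501 and 0.0552, and those of ALOX5AP and PGLYRP2 without any of 7 single 10-week libraries each, at adjusted p up to 0.113 and 0.0869. EXFABP kept its call without any single library and stood at -2.70 with an adjusted p of 0.0666 without both replicates 1 and 3 of Ogye. EXFABP had 17.8, 6.71, 30.6, 13.6 and 6.0 CPM in Cornish at 10 weeks, against 87.3, 238, 145, 25.9 and 29.4 CPM in Ogye. Its highest library was replicate 2 of Ogye, and replicate 3 of Cornish lay above replicates 4 and 5 of Ogye. For none of the 16 was replicate 1 of Ogye the highest of the 20 libraries, against 4.01% of all tested genes. For 3, or 18.75%, it was the highest of its group, against 14.7% of all tested genes. Both shares are near those of all genes, so nothing is read from them. CSF3R, the receptor for the granulocyte growth factor, had 7.30, 2.74, 8.27, 5.24 and 3.83 CPM in Cornish at 10 weeks, against 9.33, 14.5, 18.8, 7.16 and 7.62 CPM in Ogye, so replicate 1 lay within its group there.

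Between the ages in Ogye, 2 of these 16 genes rose and 4 fell, where 46.1% of all tested genes were called. CSF3R rose by 1.34 ± 0.35 and EXFABP by 2.37 ± 0.63, and both calls remained without the 3 Ogye libraries that stood apart and without any single library. The oxidase genes NCF1C, CYBA and RAC2 fell by 0.98, 1.0 and 1.0 on the log2 scale, and PGLYRP2 by 1.32. Without those 3 libraries none of the 4 was called, with log2 fold changes of -0.55 for NCF1C, 0.16 for CYBA, -0.45 for RAC2 and -0.64 for PGLYRP2. In Cornish NCF1C rose by 0.80 ± 0.19 and the chemokine receptor gene CXCR1 by 1.54 ± 0.41, and none fell. NCF1C had an adjusted p of 0.0558 without replicate 3 of Cornish at 10 weeks, and the call of CXCR1 was lost without any of 5 single Cornish libraries, at adjusted p up to 0.0722. At 5 weeks 3 were called lower in Cornish, NCF1C at -1.17 ± 0.19, PGLYRP2 at -0.89 ± 0.24 and RAC2 at -0.80 ± 0.25, where 19.1% of all tested genes were called. Without the 3 Ogye libraries that stood apart none of these was called, with adjusted p of 0.0979 for NCF1C, 0.755 for PGLYRP2 and 0.717 for RAC2. PGLYRP2 also lost its call without replicate 4 or 5 of Ogye, at 0.0677 and 0.0651, and RAC2 without any of 7 single libraries, at adjusted p up to 0.119.

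A further list held genes for signals that recruit heterophils, and with them the receptor genes CXCR4, TLR4 and TLR2A and the signalling gene MYD88. It was also drawn up with earlier results of these data known, so its calls are no independent test. Of its 10 tested genes, 1, a receptor gene, was called between the breeds at 10 weeks. Between the ages in Ogye 5 were called. Among all tested genes 7.65% and 46.1% were called in these comparisons. CXCR4, the receptor that holds granulocytes in bone marrow in mammals, was lower in Cornish by -1.32 ± 0.31 with an adjusted p of 0.0143. It kept this call without any single library, and stood at -1.15 with an adjusted p of 0.11 without both replicates 1 and 3 of Ogye. In Ogye CXCR4 rose by 1.52 ± 0.31 between 5 and 10 weeks, a call that remained under every alternative run. Its ligand gene CXCL12 rose by 0.58 ± 0.23 and the cytokine gene TNFSF15 by 0.68 ± 0.27, while the cytokine gene IL1B fell by 1.21 ± 0.43 and LITAF, a gene induced by bacterial lipopolysaccharide, by 1.03 ± 0.40. None of these 4 was called without the 3 Ogye libraries that stood apart, where adjusted p were 0.42, 0.172, 0.167 and 0.746 in that order, and single libraries ended the call in 13, 16, 4 and 6 cases. No gene of this list was called by edgeR or DESeq2 at 5 weeks or between the ages in Cornish, where 3 and 1 had an unadjusted p under 0.05. IL17A, which encodes a cytokine that promotes granulocyte recruitment, had no count in any library. Replicate 1 of Ogye at 10 weeks was the highest of the 20 libraries for CXCL12 and TLR4. These are 2 of the 10 tested, against 4.01% of all tested genes.

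Markers of other blood and immune cells were summed in every library, and their part in the differences above was not tested. Macrophage and Kupffer cell markers, 15 in the table, summed to 2419 to 3183 CPM in Cornish at 10 weeks and 2136 to 2805 CPM in Ogye. The highest Ogye sum was that of replicate 1, where CD74 alone gave 1083.5 CPM. In replicates 2 to 5 CD74 gave 716 to 1031 CPM, and without CD74 replicate 1 would not be the highest. Markers of T and natural killer cells summed to 107 to 162 CPM in Cornish and 153 to 213 CPM in Ogye, with replicate 1 at 212 CPM. GNLY alone gave 78.7, 53.1, 91.8, 103 and 73.5 CPM of the Ogye sums, against 34.6 to 70.1 CPM in Cornish. Without GNLY replicate 1 would be the highest of its group. Thrombocyte markers summed to 27.9 to 35.8 CPM in Cornish and 24.1 to 77.1 CPM in Ogye, with replicate 1 at 57.6 CPM. F13A1 alone gave 24.98, 51.1, 43.3, 18.5 and 3.72 CPM of the Ogye sums, against 2.24 to 5.15 CPM in Cornish. Replicate 2 had the highest Ogye sum, and without F13A1 it would not exceed the highest Cornish sum. Replicate 4 would then be the highest of its group and still above Cornish. Red cell markers, among them globin genes whose transcripts the library kit depletes, summed to 70.0 to 137 CPM in Cornish and 81.9 to 229 CPM in Ogye, with replicate 1 at 122 CPM. B and plasma cell markers summed to 21.0 to 53.7 CPM in Cornish and 31.5 to 129 CPM in Ogye, with replicate 1 at 74.5 CPM. JCHAIN alone gave 71.1 CPM of the sum in replicate 1. Blood progenitor markers summed to 134 to 160 CPM in Cornish and 166 to 229 CPM in Ogye, where replicate 1 had the lowest value of its group. CEBPA, at 66.9 CPM, and SPI1, at 78.5 CPM, made up most of that lowest sum. Whether the reads of CEBPA and SPI1 came from progenitors or from other liver cells was not tested, so the sum is no measure of progenitors. MYB, GATA2 and FLT3 were instead highest of the group in replicate 1, and no other progenitor marker was. Of the 56 tested markers of these 6 cell types, 14 (25%) were highest within the Ogye group of 10 weeks in replicate 1, against 14.7% of all tested genes. They were 7 of 15 T and natural killer cell, 3 of 14 macrophage, 3 of 9 progenitor and 1 of 8 thrombocyte markers. For 4 of them replicate 1 was the highest of all 20 libraries, namely 1 macrophage, 2 T and natural killer cell and 1 progenitor gene.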

How the data were processed

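Total liver RNA was made into stranded libraries after depletion of ribosomal and globin RNA, per the labels' protocols. The authors deposited raw counts per gene for 20 libraries, made with FastQC, MultiQC, STAR, featureCounts and the build GRCg7b, per the submitters' processing notes. Versions and the strand setting are not stated in the sources used here, so reads of genes that overlap may be shared. Of 54062 entries, 13956 carry a gene symbol and were used, 40097 are assembled transcripts and 9, with 0.0126% to 0.0593% of a library's counts, name no gene. Named genes held 9625549 to 21106844 counts per library. A count of 0 was read as up to 3 counts, or 0.128 to 0.335 CPM, which covers counting error only.

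Genes were filtered with filterByExpr (minimum count 10), scaled by TMM and fitted with edgeR 4.0.16 (robust quasi-likelihood, R 4.3.3) in 1 model of the 4 groups, which share an estimate of the spread. Tests were 2-sided, with Benjamini-Hochberg adjustment over the 10697 genes and a threshold of 0.05. DESeq2 1.42.0, other scalings, filters, libraries left out and the replicate number as a block were alternatives. The 8 genes, the other gene lists and the tests were chosen with earlier results of these data known. Named genes are the 8, up to 4 genes of a list with the lowest adjusted p in a comparison, the genes most alike, and markers with no count. AvBD3, AvBD4, AvBD6, AvBD9, AvBD10, CSF3R in every comparison, and list members called beyond that number were named after their values were seen. So were TLR4, TLR2A, MYD88, CD74, GNLY, F13A1, JCHAIN, CEBPA, SPI1, MYB, GATA2 and FLT3. Of the named genes 12769 matched RefSeq's table for GRCg7b, the 8 among them.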

Additional observations from a re-analysis of the deposited data

Results flagged for a closer look

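For 5 of the 8 genes, replicate 1 of Ogye at 10 weeks stood far above the other 4 libraries of its group. Its gap to the next library made up 0.780 of the group's range for AvBD7, 0.856 for DEFB4A, 0.823 for LECT2, 0.740 for CATH2 and 0.762 for CATH3, above the Dixon limit of 0.71 for 5 libraries. This library was known to be high for several of these genes when they were listed, so the values describe it and test nothing. In all 32 groups of libraries were screened, 4 for each gene. The gaps were taken on CPM, not on the log2 scale. Chance passes this limit in about 1 of 20 only where values are spread normally, which was not tested for these CPM. The 5 genes vary together, so these are not 5 separate findings.

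LYG2 differed between the ages in opposite directions in the breeds. Every Cornish library of 10 weeks was lower than every one of 5 weeks, a log2 fold change of -2.22, and every Ogye library of 10 weeks was higher than every one of 5 weeks, a log2 fold change of 2.43. Whether these age differences differ between the breeds was not tested, since the 10-week libraries led to the choice of the gene.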

How the results depend on the processing

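At 5 weeks 0 of the 8 genes were called, and 6 of the 29 alternatives called LYG2 or S100A12. LYG2 was called with DESeq2 (1.16, adjusted p 0.0279), when replicate 3 of Cornish at 5 weeks was left out (1.34, 0.0499) or replicate 2 of Cornish at 10 weeks (1.18, 0.0431). S100A12 was called with DESeq2 (-1.57, 0.0179) and without replicate 1 (-1.66, 0.0353) or 2 (-1.78, 0.0207) of Ogye at 5 weeks, replicate 2 of Cornish at 10 weeks (-1.54, 0.0478) or replicate 5 of Ogye at 10 weeks (-1.54, 0.0373). MMP9 at 5 weeks, at -0.28 to 0.13 leaving out 1 library, turned its sign without replicate 4 of Cornish (0.13), replicate 1 of Ogye (0.04) and replicate 4 of Ogye (0.0044), and the change of CYBA between the ages in Ogye turned without the 3 Ogye libraries of 5 weeks (0.16). The cause was not tested.

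The count of all genes called between the breeds at 5 weeks, 2042, was 56 with the compared groups alone, 3094 with all entries of the table and 99 without the 3 Ogye libraries, and 686 to 3945 leaving out 1 library. At 10 weeks, 818, it was 1234 with DESeq2, 1474 with the groups alone, 1388 with all entries, 1882 without the 3 Ogye libraries, 119 without replicates 1 and 3 of Ogye at 10 weeks, and 460 to 1002 leaving out 1 library. Between the ages in Cornish, 787, it was 1350, 2330, 1411 and 2219 with DESeq2, the groups alone, all entries and without the 3 Ogye libraries, and 379 to 1048 leaving out 1 library. In Ogye, 4931, it was 3073 with the groups alone, 7690 with all entries, 1531 without the 3 Ogye libraries, and 3949 to 5850 leaving out 1 library. No scaling moved the median of all genes by over 0.1.

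Same-numbered libraries of 2 groups had deviations that correlated at -0.26 to 0.19, and at 0.01 to 0.16 between the ages in Ogye. Differently numbered libraries were not set beside them, so whether the replicate numbers pair the libraries was not settled. With the replicate number as a block 1910 genes were called between the breeds at 5 weeks, 723 at 10 weeks, 652 between the ages in Cornish and 4948 in Ogye. The search for promoter motifs was not run. CATH3 had 1 to 12 counts per library at 5 weeks, which limits the precision of its values there, and it was too low to be tested with the 5-week groups alone.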
